A study of Rattus norvegicus with 8 samples.

Results

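Retinoic acid genes were followed in single-nucleus RNA sequencing of rat nodose ganglia, the vagal sensory ganglia that innervate thoracic and abdominal organs. The 10 genes, of 30560 in the gene list, were Cyp26b1, Dhrs3, Aldh1a1, Aldh1a2, Aldh1a3, Rara, Rarb, Rarg, Rxra and Rxrg, each matched by its symbol. They were chosen by name after earlier results of these data were known, among them the left-right difference of Cyp26b1 in neurons. All groups were experimentally naive Long Evans rats of 8 weeks, 18 labelled male and 18 labelled female, and the left and right ganglia were collected apart. Ganglia of 6 rats made 1 pool, with 3 pools for each labelled sex and side and 12 pools in all. The left and right pools of a sex drew on the same rats. Nuclei of every pool ran through each of 8 sublibraries, so the pool was the replicate and a p-value measured the spread between pools of 6 rats.

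After filtering, 36738 nuclei with 139954192 unique molecular identifiers (UMIs, counts of distinct RNA molecules) remained, and pool totals ranged from 7139364 to 19456287. Neurons made up 26864 nuclei in 25 subclusters, satellite glia 4328, myelinating Schwann cells 1500, endothelial cells 862 and mural cells 248, each called by its marker genes. A further 1980 nuclei stayed unnamed. A cluster is called below by its 3 leading genes. Male-labelled left pool 1 had 2.88 UMIs of Y-linked genes per 1000000 UMIs (counts per 1000000, CPM) against 84.4 to 91.3 in the other male-labelled pools, and female-labelled left pool 1 had 88.6 against 2.73 to 3.95, so both went against their sex label and the results by sex that follow are given with and without them. Neuron markers were counted in every class, and whether free RNA, doublets or both carried them was not tested. Their 14 genes summed to 11806 CPM in neurons, 10309 in satellite glia, 5588 in endothelial cells, 4715 in myelinating Schwann cells and 3090 in mural cells.

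Retinoic acid is made from retinol in several enzymatic steps, diffuses into the nucleus and acts on gene expression through retinoic acid receptors (RARs) paired with retinoid X receptors (RXRs). Retinol dehydrogenases form retinaldehyde, the ALDH1A enzymes oxidise it to retinoic acid, and DHRS3 turns retinaldehyde back into retinol. CYP26 enzymes hydroxylate and so clear retinoic acid, which limits the cells that respond to it. In peripheral ganglia the pathway is known for its part in the growth of sensory neurites and in patterning of the cranial nerves during development.

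Receptor pairs bind direct repeats of a hexamer, and the spacing of the repeat sets which receptors bind. The best known repeat, with a 5-base spacer, lies in the Rarb promoter, so that this receptor gene is itself a target of retinoic acid. It is shown here because it was the only match among the 10 genes. The stretch from the RefSeq promoter table of build GRCr8 is chr15:11336410-11336439 on the plus strand, with the repeat in capitals and its first base at position 25 when the annotated start is counted as 1.

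Rarb: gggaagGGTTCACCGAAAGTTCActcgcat

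The half-sites are GGTTCA and AGTTCA around the spacer ccgaa. Windows from 250 bases before to 50 after each start were searched on both strands for 2 half-sites in the same direction, spaced by 5, 1 or 2 bases, each half-site reading A or G, then G, then G or T, then T, then C or G, then A. The 5-base repeat was found in 0.639% of 33469 promoter windows, the 1-base repeat in 0.583% and the 2-base repeat in 0.409%. The 10 genes have 11 windows, of which 1, that of Rarb, held the 5-base repeat and none held the other spacings. The 250 bases before the annotated start of Cyp26b1, the gene with the left-right difference, are given for context. They lie at chr4:118616177-118616426 on the minus strand of GRCr8 and hold none of these repeats.

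Cyp26b1: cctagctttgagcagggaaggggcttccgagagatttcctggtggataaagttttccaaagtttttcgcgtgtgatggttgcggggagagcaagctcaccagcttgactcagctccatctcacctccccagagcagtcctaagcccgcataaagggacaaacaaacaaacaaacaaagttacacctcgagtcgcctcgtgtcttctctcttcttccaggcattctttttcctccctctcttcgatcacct

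Cyp26b1, the hydroxylase that clears retinoic acid, was the one gene of the 10 whose mean level was not higher in satellite glia than in neurons. In neurons it averaged 22.2 ± 6.67 CPM (SD, n = 12 pools), between 13.5 and 34.0. Satellite glia had 15.2 ± 6.88 CPM (n = 12) and myelinating Schwann cells 8.06 ± 7.09 (n = 12). The means were 33.9 ± 25.7 CPM in endothelial cells (n = 12) and 38.3 ± 35.4 in mural cells (n = 11), from 68 and 22 UMIs. Mural, endothelial and neuronal levels overlapped within their spread. All such levels are descriptions without a test, because the clusters were made from the same nuclei.

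Within neurons Cyp26b1 was unevenly spread. The Itgae Gpr65 Ntsr1 neurons had 82.7 ± 24.8 CPM (n = 12), between 29.6 and 117. They were followed by the Cysltr2 Gdpd4 Col6a5 neurons at 54.7 ± 10.04, the Klhl1 Agtr1a Ntrk3 neurons at 53.7 ± 27.4, the Spp1 Kcna1 Nefh neurons at 37.6 ± 27.7, the Chodl Cartpt Kcng1 neurons at 33.4 ± 18.6, the Itgae Gpr65 Chrm2 neurons at 25.5 ± 13.9 and the Cckar Nnat Chrna3 neurons at 19.0 ± 10.6. Neighbours in this order lay within each other's spread over pools, except that the step from the first to the second subcluster slightly exceeded the SD of the first. The median over subclusters was 6.29 CPM. The lowest mean, in the Htr4 Hs6st2 Gna14 neurons, was 0.813 over the pools with at least 10 of these nuclei, while all pools together held 2 UMIs. The 7 subclusters at or above 3 times that median held 29.96% of neurons and 84.0% of neuronal Cyp26b1 UMIs. The Itgae Gpr65 Ntsr1 neurons alone were 4.42% of neurons and gave 30.5% of those UMIs.

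A UMI of Cyp26b1 was seen in 32.8% of Itgae Gpr65 Ntsr1 nuclei, at a median of 6313 UMIs, and in 0.667% of Tafa4 Esr1 Crhr2 nuclei, at 2757. With every nucleus thinned to 1500 UMIs the shares were 11.8% and 0.251%. Over all neurons the share was 5.42% (exact 95% interval 5.16 to 5.70), or 2.34% after thinning, which left out 5027 shallower neurons. Nodose-like neurons, those with markers of the placode-derived nodose lineage, reached 3.27% after thinning and 29.0 ± 8.71 CPM (n = 12). Jugular-like neurons, with markers of the neural crest-derived jugular lineage, reached 0.427% and 4.47 ± 4.52 CPM (n = 12). A further 8063 neurons were of neither kind, so low Cyp26b1 was not particular to jugular-like neurons. Among them, the Fhip1a Kirrel3 St18 neurons had 4.68 ± 1.39 CPM in left and 3.52 ± 2.18 in right pools (n = 6 each). The exact interval covers counting error only.

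**Figure D1:**
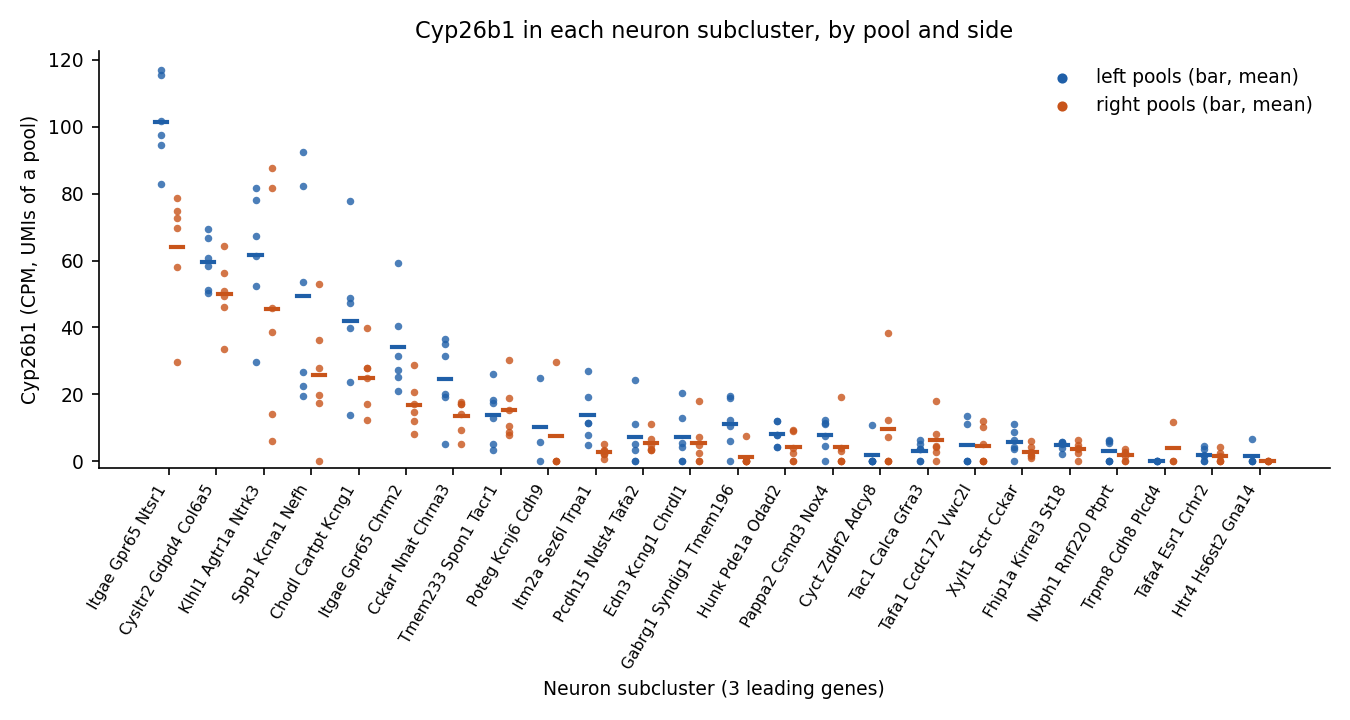
Cyp26b1 level in CPM (y axis) in 24 neuron subclusters (x axis, by their 3 leading genes, in falling order of the mean), where each point is a pool with at least 10 nuclei, blue for left and orange for right, and each bar is the mean of a side. The left pools of the Itgae Gpr65 Ntsr1 neurons, between 82.9 and 117 CPM, lie above their right pools, between 29.6 and 78.6.

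Dhrs3, the reductase that returns retinaldehyde to retinol, was lowest in neurons. Its mean was 5.12 ± 1.53 CPM in neurons (n = 12), 31.3 ± 5.12 in satellite glia (n = 12) and 38.0 ± 13.2 in myelinating Schwann cells (n = 12). Endothelial cells had 78.9 ± 22.6 CPM (n = 12) and mural cells 75.5 ± 39.1 (n = 11). Every satellite glia pool, the lowest at 23.1 CPM, lay above every neuron pool, the highest at 8.06. The 2 glial classes lay within each other's spread, as did the 2 vascular classes. Among endothelial clusters the Adgrl4 Adgrf5 Abcg2 cells had 95.4 ± 29.4 CPM (n = 12) and the Cyyr1 Abcg2 Prom1 cells 59.0 ± 28.6 (n = 11). Among neurons the Cckar Nnat Chrna3 subcluster was highest at 15.4 ± 6.21 CPM (n = 12) against a median over subclusters of 4.98. The summed satellite glia markers were 1742 CPM in that subcluster, against 725 in all neurons, and over the 25 subclusters Dhrs3 correlated with that sum at r = 0.43. With the summed myelinating Schwann cell markers Dhrs3 correlated at r = 0.43 too. The part of glial RNA in its Dhrs3 was not tested.

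The 3 retinaldehyde dehydrogenases, which make retinoic acid, were scarce in neurons. Aldh1a1 averaged 3.74 ± 0.54 CPM (n = 12), Aldh1a2 1.04 ± 0.65 and Aldh1a3 0.97 ± 0.53. A UMI was found in 1.39%, 0.354% and 0.365% of neurons, or 0.609%, 0.164% and 0.171% after thinning to 1500 UMIs. Outside neurons each was higher in a few clusters. Aldh1a3 reached 99.2 ± 66.9 CPM in the unnamed Andpro Dcn Ebf2 nuclei (n = 7 pools, 158 nuclei, 27 UMIs), between 46.9 and 237. That cluster carried markers of fibroblasts and of perineurial cells, and it also had 83.8 ± 53.8 CPM of Dhrs3 and 79.8 CPM of Rarb. Its median depth was 1200 UMIs, and its Aldh1a3 share of nuclei was 13.3%, against 0.365% of neurons at a median of 2931 UMIs.

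Aldh1a1 was highest among neurons in the Pappa2 Csmd3 Nox4 subcluster, with 16.5 ± 12.4 CPM (n = 12), and next in the Nxph1 Rnf220 Ptprt subcluster, with 10.1 ± 5.23 (n = 12). These neighbours lay within their spread, and the median over subclusters was 2.73. Outside neurons the smaller of 2 skeletal muscle clusters led by Myh4, Ttn and Tnnt3 had 56.8 ± 49.2 CPM (n = 3 pools, 156 nuclei), and most muscle nuclei of the data, 419 of 582, came from female-labelled right pool 2. Aldh1a2 was sparse throughout. Its highest neuron subcluster, Il31ra Hs6st2 Pkhd1, averaged 14.1 CPM over the 2 pools with at least 10 of its nuclei. That subcluster held 1 UMI of Aldh1a2 in its 56 nuclei of all pools. Endothelial cells held 19 UMIs of Aldh1a2, at 7.95 ± 8.17 CPM (n = 12), and these pools reached from 0 to 23.9.

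**Figure D2:**
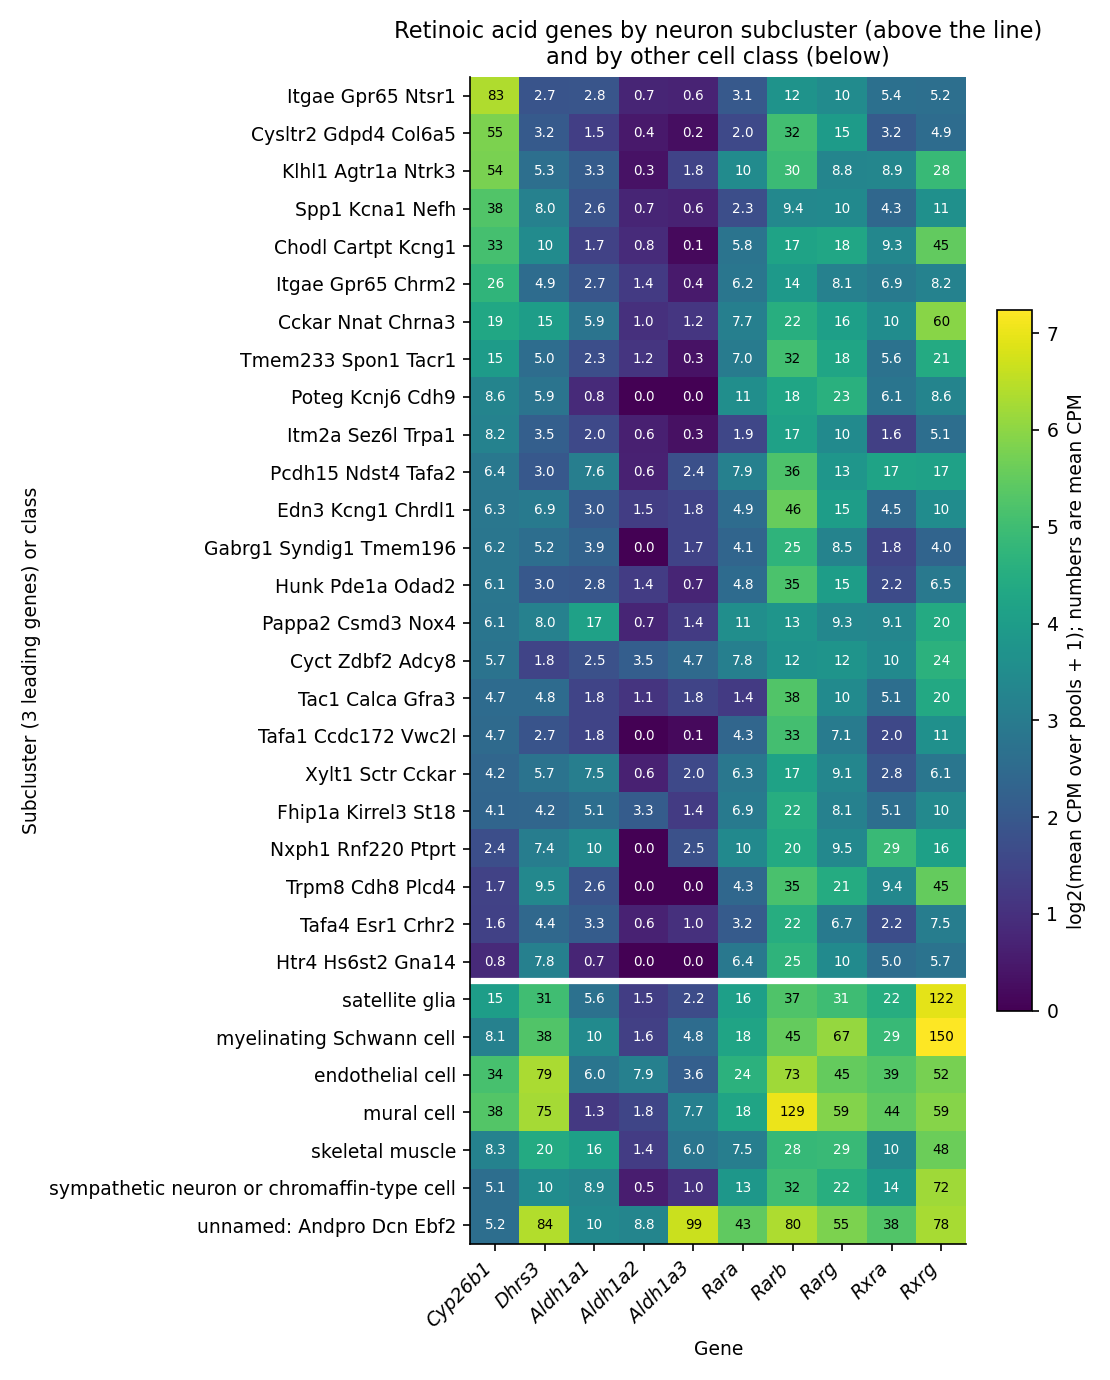
Mean CPM over pools of the 10 genes (columns) in 24 neuron subclusters above the white line and in 6 other cell classes and the unnamed Andpro Dcn Ebf2 nuclei below it (rows), with the CPM printed in each cell and the colour on a log2(CPM + 1) scale. Cyp26b1 is high in a few neuron subclusters, while Rxrg, Rarg and Dhrs3 have their highest means below the line.

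Of the retinoic acid receptors, Rara, Rarb and Rarg were all lower in neurons than in the glial and vascular classes. Rara averaged 5.05 ± 0.72 CPM in neurons and 15.9 ± 4.53 in satellite glia (n = 12 each), and the highest neuron pool, at 6.2, lay below the lowest satellite pool, at 10.6. Rarg averaged 11.4 ± 1.70 CPM in neurons, 30.5 ± 3.47 in satellite glia and 67.0 ± 11.8 in myelinating Schwann cells (n = 12 each). These 3 ranges did not overlap: 8.96 to 13.7, 25.9 to 36.4 and 52.6 to 87.8. Rarg thus separated the glial classes by pool range, while Rara, at 17.6 ± 6.18 CPM in myelinating Schwann cells, did not.

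Rarb, the receptor gene with the repeat printed above, was highest in mural cells at 129 ± 62.2 CPM (n = 11) and in endothelial cells at 72.8 ± 22.4 (n = 12). Myelinating Schwann cells had 45.2 ± 14.9 CPM, satellite glia 37.0 ± 5.18 and neurons 23.1 ± 2.75 (n = 12 each). Each neighbouring pair in this order overlapped in pool values except satellite glia and neurons, whose ranges were 29.2 to 46.7 and 19.8 to 28.3. Among neurons Rarb was highest in the Edn3 Kcng1 Chrdl1 subcluster, at 46.3 ± 14.96 CPM (n = 12), and lowest in the Spp1 Kcna1 Nefh subcluster, at 9.44 ± 5.18 (n = 12). Jugular-like neurons had 37.5 ± 14.0 CPM of Rarb and nodose-like neurons 21.1 ± 3.49 (n = 12 each), an order opposite to that of Cyp26b1. The Itgae Gpr65 Ntsr1 neurons, highest in Cyp26b1, had 12.2 ± 6.09 CPM of Rarb. Over the 25 subclusters the Pearson correlation of the pair on the log2(CPM + 1) scale was -0.25, a description over points that share libraries and differ in depth.

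Rxrg, which encodes a retinoid X receptor, was the gene most unevenly divided between neurons and glia. Neurons averaged 14.0 ± 2.07 CPM, satellite glia 122 ± 16.5 and myelinating Schwann cells 150 ± 27.4 (n = 12 each). The highest neuron pool had 16.9 CPM, and the lowest satellite pool had 90.7. A UMI was present in 31.6% of satellite glia, at a median of 2317.5 UMIs, and in 4.74% of neurons, at 2931. Thinned to 1500 UMIs, these shares were 16.9% and 1.88%. Endothelial cells had 52.5 ± 14.6 CPM (n = 12) and mural cells 59.5 ± 77.8 (n = 11).

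Rxrg also differed among neuron types. The Cckar Nnat Chrna3 neurons had 60.3 ± 18.5 CPM (n = 12), the Trpm8 Cdh8 Plcd4 neurons 44.9 ± 35.3 (n = 7) and the Chodl Cartpt Kcng1 neurons 44.6 ± 7.72 (n = 12), against a median over subclusters of 10.4. These 3 lay within each other's spread. The summed satellite glia markers were 1742, 2302 and 1485 CPM in these subclusters. They were 725 CPM in all neurons, 3907 in satellite glia and 7874 in myelinating Schwann cells, so the list was not particular to satellite glia. Over the 25 subclusters Rxrg correlated with that sum at r = 0.56, and over the 9 satellite glia clusters at r = 0.95. With the summed myelinating Schwann cell markers its correlations were r = 0.48 and r = 0.43. The part of glial RNA in the neuronal Rxrg was not tested.

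Rxra, another RXR gene, averaged 5.81 ± 1.18 CPM in neurons, 21.6 ± 5.03 in satellite glia and 28.6 ± 11.02 in myelinating Schwann cells (n = 12 each). Endothelial cells had 38.5 ± 20.7 CPM (n = 12) and mural cells 43.6 ± 40.2 (n = 11). The neuron and satellite glia pools, at 3.75 to 8.13 and 13.7 to 31.2, did not overlap, whereas the glial and vascular classes did. Among neurons the Nxph1 Rnf220 Ptprt subcluster had 29.0 ± 8.34 CPM (n = 12), between 18.9 and 48.6, against a median over subclusters of 5.42. The Pcdh15 Ndst4 Tafa2 subcluster was next at 17.3 ± 8.04 (n = 12), and the lowest was the Itm2a Sez6l Trpa1 subcluster at 1.58 ± 1.87 (n = 12). The summed satellite glia markers were 1416 CPM in the Nxph1 Rnf220 Ptprt subcluster, and the part of glial RNA in its Rxra was not tested.

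**Figure D3:**
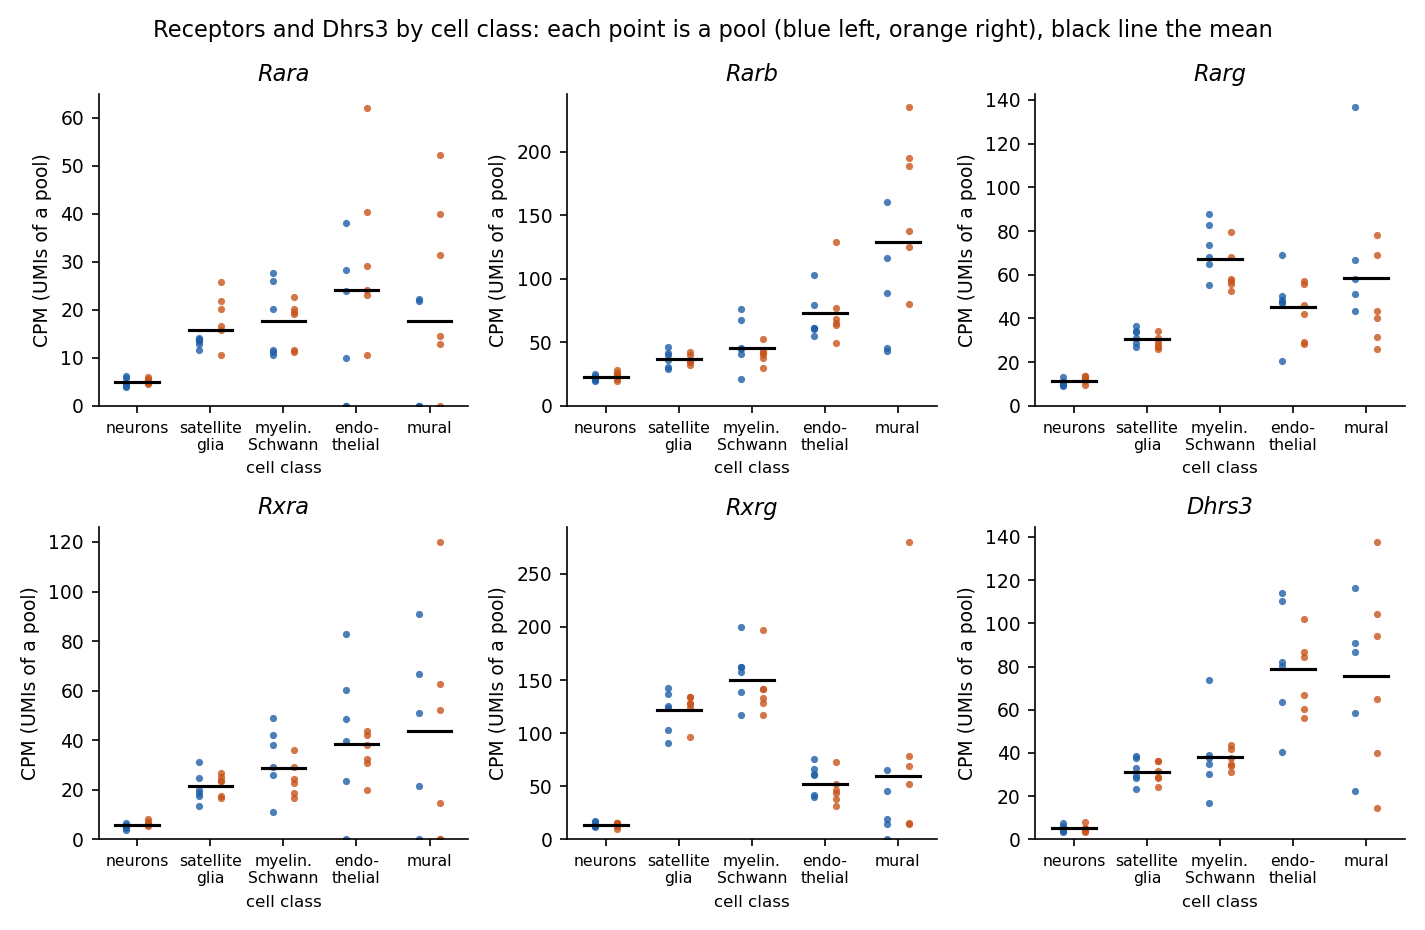
Levels of the 5 receptor genes and Dhrs3, 1 panel each, in CPM on a linear axis (y) by cell class (x), where each point is a pool (blue left, orange right) and the black line is the mean. In each of these 6 panels every satellite glia pool lies above every neuron pool. The share of all genes separated in this way is not given, so the separation is not read as particular to these genes.

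Because intronic reads scale with gene length in nuclei, levels of different genes were set side by side per 100 kb of the RefSeq gene span. On that scale neurons had 131.8 CPM per 100 kb of Cyp26b1, 50.9 of Rarg, 33.5 of Rxrg, 15.1 of Dhrs3, 11.3 of Rara, 6.71 of Rxra and 3.59 of Rarb. The ALDH1A genes were lowest, at 2.45 for Aldh1a1, 2.19 for Aldh1a3 and 1.31 for Aldh1a2. In satellite glia the order was led by Rxrg at 292 CPM per 100 kb, then Rarg at 136, Dhrs3 at 92.6 and Cyp26b1 at 90.6. The span of Rarb, at 644.8 kb, was the longest of the 10, and that of Cyp26b1, at 16.8 kb, the shortest.

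Genes whose pattern over the 25 neuron subclusters was most like that of a retinoic acid gene were ranked among 11418 genes by Pearson correlation of log2(CPM + 1). For Cyp26b1 they were Mtmr6 (r = 0.85), Clip3 (0.82), Calm2 (0.80), App (0.79) and Tes (0.79). Over these subclusters Cyp26b1 also correlated with the summed neuron markers at r = 0.60. The part of overall neuron marker content in its pattern was not tested. For Rxrg they were Jag1 (0.92), Ctsh (0.91), Slc1a3 (0.89) and Heyl (0.89), of which Slc1a3 is known as a glial gene. Jag1 was also among the 10 leading genes of the Cdh15 Tnc Fbln2 satellite glia. For Rxra they were Nxph1 (0.79), Cntnap5a (0.76), Kcnn3 (0.76), Slc24a4 (0.74) and Tfeb (0.73). For Dhrs3 they were Tril, Gli3, Tns3 and Kcnj10, with r of 0.77, 0.77, 0.77 and 0.76, and Frmd6 at 0.76. Kcnj10 was among the 10 leading genes of several satellite glia clusters, such as Kctd12 Efemp1 Kcnj10. For Aldh1a1 they were Fam210a (0.80), Glis2 (0.78), Nox4 (0.78), Il22ra1 (0.77) and U4 (0.77). The list of Aldh1a2 rested on the subcluster with 1 UMI and is not given.

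The study's design sets left against right ganglia, and Cyp26b1 in neurons is described here without a test because that difference was known when the genes were chosen. The 6 left pools had 24.0, 26.9 and 29.0 CPM in the male-labelled and 34.0, 27.7 and 26.2 in the female-labelled rats. The 6 right pools had 14.6, 18.2 and 14.96 CPM in the male-labelled and 20.02, 17.1 and 13.5 in the female-labelled rats. Every left pool lay above every right pool, also without the 2 pools that went against their sex label. The edgeR fit gave a log2 difference, right minus left, of -0.79 ± 0.11 (SE), and -0.76 ± 0.11 without those 2 pools. Of the other 9 genes none was called at an edgeR adjusted p under 0.05, with all pools or without those 2. Of the 14163 genes tested 0.141% were called with all pools, and 0.0212% were called without those 2. Nothing is read from these counts. With all pools Rxra alone among the 9 had an unadjusted edgeR p under 0.05, against 6.94% of all genes. The 9 genes lay between -0.09 and 0.31 on the same log2 scale in neurons, with Rxra at 0.31 ± 0.12.

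**Figure D4:**
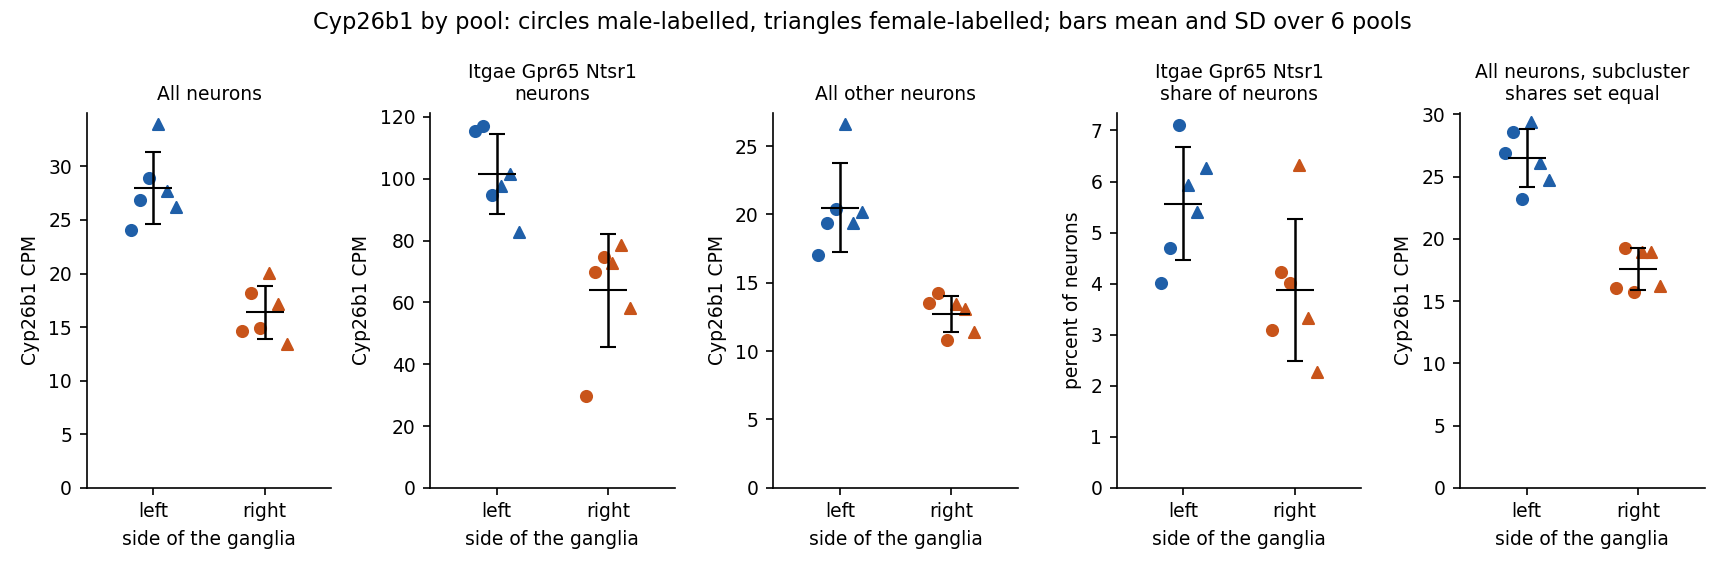
Left and right pools are shown in 5 panels. The first panels give Cyp26b1 CPM in all neurons, in the Itgae Gpr65 Ntsr1 neurons and in all other neurons. The others give the percent of neurons in the Itgae Gpr65 Ntsr1 subcluster, and Cyp26b1 CPM with subcluster shares of neuronal UMIs held at their mean. Points are pools (circles male-labelled, triangles female-labelled) and bars the mean and SD of 6 pools. Left and right pools do not overlap in the 4 panels of Cyp26b1 level, and they overlap in that of the subcluster's share, at 4.01 to 7.10% and 2.26 to 6.32%.

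The left-right difference of Cyp26b1 was present both in its highest subcluster and outside it. The Itgae Gpr65 Ntsr1 neurons had 101.5 ± 12.97 CPM in left pools, between 82.9 and 117, and 63.9 ± 18.2 in right pools, between 29.6 and 78.6 (n = 6 pools each). All other neurons had 20.5 ± 3.24 CPM in left pools, between 17.01 and 26.6, and 12.7 ± 1.34 in right pools, between 10.8 and 14.2 (n = 6 each). Neither pair of ranges overlapped. The right-to-left ratios were 0.629 and 0.621. The lowest right value in the top subcluster, 29.6, came from male-labelled right pool 1.

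The make-up of the neurons differed less clearly. The Itgae Gpr65 Ntsr1 neurons were 5.57% ± 1.11 of neurons in left pools and 3.88% ± 1.39 in right pools (n = 6 each), and the ranges, 4.01 to 7.10 and 2.26 to 6.32, overlapped. The next values use each subcluster's share of neuronal UMIs, not of nuclei. With every such share held at its mean over pools, Cyp26b1 was 26.5 ± 2.33 CPM in left and 17.5 ± 1.69 in right pools, a ratio of 0.662 without overlap. With every subcluster's level held at its mean instead, the values were 23.4 ± 2.57 and 20.7 ± 1.72, a ratio of 0.884 with overlap. The observed ratio was 0.586, and the parts of make-up and of level in it were not tested.

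Across subclusters, mean Cyp26b1 was lower on the right in 20 of the 24 that could be compared. In the 7 high subclusters together it was 60.6 ± 3.61 CPM in left and 37.5 ± 5.61 in right pools, which did not overlap, and in the others 6.85 ± 1.56 and 4.26 ± 0.92, which did overlap (n = 6 each). Left and right pools overlapped in every single subcluster compared other than the top one. In left and right pools the Itgae Gpr65 Chrm2 neurons had 34.2 ± 14.0 and 16.8 ± 7.19 CPM, and the Itm2a Sez6l Trpa1 neurons 13.6 ± 8.11 and 2.80 ± 1.5. The Cysltr2 Gdpd4 Col6a5 neurons had 59.4 ± 7.82 and 50.05 ± 10.4. The right-to-left ratio in the Itm2a Sez6l Trpa1 neurons, 0.205, was below the 0.629 of the top subcluster. Summed neuron markers in neurons were 12042 CPM in left pools and 11581 in right pools, and summed satellite glia markers 665 and 781, with overlapping ranges in both.

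Side, labelled sex and their interaction were then tested with edgeR's quasi-likelihood test on UMIs summed per pool, with Benjamini-Hochberg adjustment over all genes of a class, in contrasts that had no part in the choice of genes. In 8 contrasts no retinoic acid gene passed an adjusted p of 0.05. In neurons all 10 genes were tested, and 0 were called for labelled sex, where 0% of 14163 genes were called. At an unadjusted p under 0.05 these were 4 of 10, against 17.3% of all genes, and DESeq2 called 0. For the side-by-sex interaction in neurons, 0 of 10 were called (0% of all genes), 0 had an unadjusted p under 0.05, against 4.45% of all genes, and DESeq2 called 0. Without the 2 pools against their sex label, 0 of 10 were called for the interaction, where 0% of all genes were.

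The 4 genes with an unadjusted p under 0.05 for labelled sex in neurons were all lower in female-labelled pools. Dhrs3 had 5.95 ± 1.65 CPM in the 6 male-labelled pools, from 3.99 through a median of 5.52 to 8.06, and 4.29 ± 0.86 in the 6 female-labelled pools, from 3.40 through 4.1 to 5.41. Its log2 difference was -0.49 ± 0.19 (SE), with an edgeR adjusted p of 0.202. Rarb, at 24.8 ± 2.63 and 21.5 ± 1.71 CPM, differed by -0.22 ± 0.08 (adjusted p 0.171 in edgeR). For Rxrg, at 15.1 ± 1.57 and 12.9 ± 2.03, and Rxra, at 6.29 ± 1.47 and 5.33 ± 0.59, the log2 differences were -0.24 ± 0.10 and -0.28 ± 0.12, with edgeR adjusted p of 0.240 and 0.266. The pools of both labels overlapped in all 4. Without the 2 pools that went against their label, Dhrs3 was at -0.60, Rarb at -0.24, Rxra at -0.22 and Rxrg at -0.18, with edgeR adjusted p of 0.176, 0.214, 0.495 and 0.494, and 0 of the 10 genes were called, where 0.191% of all genes were. Aldh1a2, at 0.64 ± 0.42 with all pools, was at 0.93 ± 0.38 without them, with an edgeR adjusted p of 0.283. The left-right difference of Cyp26b1 changed with labelled sex by -0.10 ± 0.22 on the log2 scale, with a 95% interval of -0.57 to 0.38 and an edgeR adjusted p of 1.00. Without the 2 pools this change had the other sign, at 0.13 ± 0.23.

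In satellite glia 7 genes had enough counts to be tested, all but the ALDH1A genes, and 0 were called by side (0% of 10540 genes). At an unadjusted p under 0.05 there was 1, Cyp26b1, against 4.48% of all genes, and DESeq2 called 0. Its level was 18.4 ± 7.83 CPM in left pools, from 5.88 through a median of 18.5 to 27.7, and 12.05 ± 4.27 in right pools, from 7.06 through 11.8 to 18.4. These ranges overlapped, and the log2 difference was -0.51 ± 0.24 with an edgeR adjusted p of 1.00. Summed neuron markers in satellite glia were close to those in neurons, as given above, and the part of neuronal RNA in this Cyp26b1 was not tested. Rara had 13.3 ± 0.94 CPM in left and 18.5 ± 5.31 in right pools, with a log2 difference of 0.40 ± 0.21 and an edgeR adjusted p of 1.00. Rxrg, the highest of the 10 per gene length in these cells, had 120 ± 19.8 and 124 ± 14.1 CPM, and its log2 difference of 0.01 had a 95% interval of -0.19 to 0.21.

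Endothelial cells allowed a test of Cyp26b1, Rarb, Rxrg and Dhrs3, and 0 of 4 were called by side (0% of 4941 genes). At an unadjusted p under 0.05 there was 1, Cyp26b1, against 6.6% of all genes, and DESeq2 called 0. Left pools had 48.0 ± 29.0 CPM of Cyp26b1, from 9.43 through a median of 55.0 to 79.5, and right pools 19.7 ± 11.51, from 7.29 through 18.5 to 33.0. The groups overlapped, and they rested on 41 and 27 UMIs. The log2 difference was -1.24 ± 0.45, with a 95% interval of -2.15 to -0.32 and an edgeR adjusted p of 0.544. Summed neuron markers in endothelial cells were lower on the left, at 4693 CPM between 2769 and 5355, than on the right, at 6068 between 5399 and 7003. The class's own endothelial markers were higher on the left, at 2920 CPM between 2424 and 3549, than on the right, at 2479 between 2337 and 2580. Mural markers were likewise higher on the left, at 1738 CPM between 1264 and 2207, than on the right, at 1370 between 1014 and 1572. The part of these markers' cells in the Cyp26b1 difference was not tested, and without the 2 pools against their sex label Cyp26b1 had too few counts here to be tested. In the Adgrl4 Adgrf5 Abcg2 endothelial cells the neuron markers summed to 3497 CPM and Cyp26b1 to 37.0 ± 30.2 (n = 12).

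In myelinating Schwann cells Rarb, Rarg, Rxra, Rxrg and Dhrs3 were tested, and 0 of 5 were called by side, where 0.0665% of 6015 genes were called. None had an unadjusted p under 0.05, against 6.88% of all genes, and DESeq2 called 0. The log2 differences ran from -0.55 for Rxra, with a 95% interval of -1.24 to 0.13, to 0.03 for Dhrs3, with an interval of -0.54 to 0.61. For labelled sex, 0 of 7 genes were called in satellite glia, 0 of 5 in myelinating Schwann cells and 0 of 4 in endothelial cells, with 0% of all genes called in each. At an unadjusted p under 0.05 there were 0 in each class, against 6.79%, 4.62% and 3.56% of all genes, and DESeq2 called 0. Without the 2 pools against their sex label, 0 were called by labelled sex in these classes, where 0.164%, 0.143% and 0.0702% of all genes were. Cyp26b1 in satellite glia moved by labelled sex from 0.38 ± 0.24 with all pools to 0.67 ± 0.26 without the 2, with an edgeR adjusted p of 0.443 and an unadjusted one of 0.0158. Rarb in endothelial cells moved from -0.38 ± 0.25 to -0.59 ± 0.28, with an edgeR adjusted p of 0.973 and an unadjusted one of 0.0443. Cyp26b1 had too few counts for a test by side in myelinating Schwann cells, and mural cells were not fitted. In both classes its mean was lower on the left. Schwann cells had 5.53 ± 6.36 CPM in left and 10.6 ± 7.39 in right pools (n = 6 each), from 9 and 24 UMIs, and mural cells 29.0 ± 46.7 (n = 5) and 46.1 ± 24.7 (n = 6), from 8 and 14 UMIs, with overlapping pools in both.

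**Figure D5:**
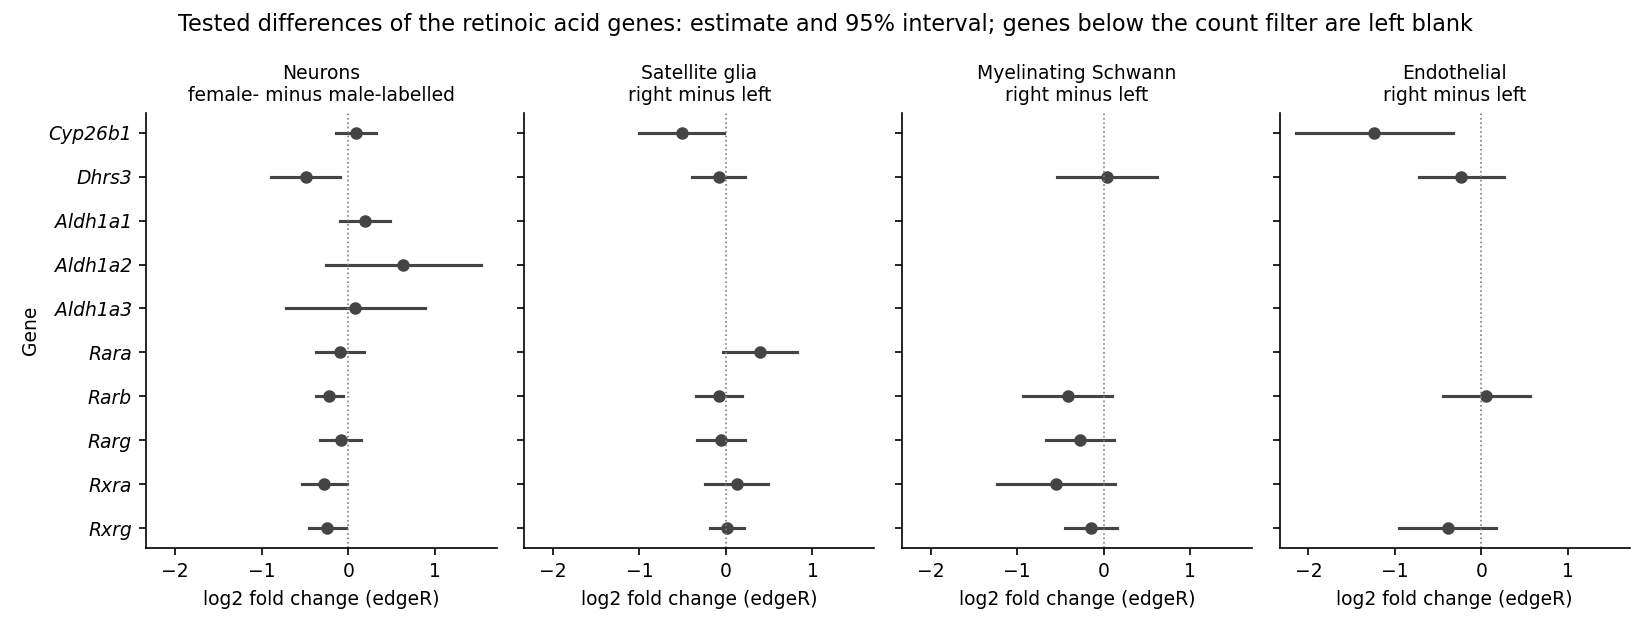
Log2 fold change (x axis) of each gene (y axis) from the edgeR fit, with points for the estimate and lines for the 95% interval, by labelled sex in neurons (female minus male) and by side (right minus left) in satellite glia, myelinating Schwann cells and endothelial cells; genes below the count filter are blank. The interval of Cyp26b1 in endothelial cells, -2.15 to -0.32, lies farthest from 0 of those drawn, and no gene in these panels passed an adjusted p of 0.05. All pools were used.

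Of a list of 78 other genes of the pathway, 71 were in the gene list. In neurons 50 were tested with edgeR and 0 were called by side, 0 by labelled sex and 0 for the interaction, where 0.141%, 0% and 0% of all genes were called. Of the 50, 5, 12 and 2 had an unadjusted p under 0.05, against 6.94%, 17.3% and 4.45% of all genes. Their median log2 difference by side was 0.03, with 30 of 50 higher on the right. Of all genes tested in neurons 47.1% were higher on the right, with a median of -0.007. Satellite glia, myelinating Schwann cells and endothelial cells had 38, 21 and 19 tested, of which edgeR called 0. At an unadjusted p under 0.05 there were 2, 2 and 0 by side, against 4.48%, 6.88% and 6.6% of all genes, and 4, 3 and 0 by labelled sex, against 6.79%, 4.62% and 3.56%. The counts of this list use all pools, also those that went against their sex label.

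The other hydroxylases of retinoic acid were nearly undetected. Cyp26a1 averaged at most 0.17 CPM in any class and Cyp26c1 at most 2.42. Cyp2s1 reached 5.46 ± 14.0 CPM in mural cells (n = 11). Among binding proteins Crabp2, which carries retinoic acid, averaged 2.06 ± 0.34 CPM in neurons, and Crabp1 0.35 ± 0.31 (n = 12 each).

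Retinol dehydrogenases were present in neurons and glia. Rdh10, which forms retinaldehyde, averaged 24.5 ± 8.37 CPM in myelinating Schwann cells and 10.2 ± 1.36 in neurons (n = 12 each). Rdh13 averaged 20.5 ± 1.65 CPM in neurons and Adh5 14.4 ± 2.56. Lrat, which esterifies retinol for storage, averaged 10.4 ± 12.4 CPM in mural cells (n = 11) and 0.06 ± 0.11 in neurons (n = 12). Lipe, a lipase, averaged 70.6 ± 24.5 CPM in endothelial cells and 9.78 ± 1.89 in neurons, and Dgat1 22.2 ± 2.78 in neurons.

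Related receptor genes, among them partners of RXRs, and cofactors of the receptors were widely expressed. Thra, a thyroid hormone receptor, averaged 161 ± 22.5 CPM in myelinating Schwann cells and 80.1 ± 7.2 in neurons. Thrb averaged 217 ± 46.0 CPM in endothelial cells and Rora 2212 ± 209, against 52.4 ± 3.82 and 238 ± 46.5 in neurons. Neuronal levels of the corepressor Ncor1 and the coactivators Ncoa1 and Crebbp were 325 ± 14.5, 360 ± 15.7 and 188 ± 8.95 CPM. Among genes known to respond to retinoic acid, Ret, which encodes a growth factor receptor, averaged 374 ± 53.8 CPM in neurons, and Meis1 averaged 37.0 ± 7.49.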

How the data were processed

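Counts are whole UMIs per gene and nucleus as deposited by the authors, in 1 table of nuclei whose names carry sex, side and pool number, and per the submitters' processing notes build mRatBN7.2, R 4.3.2 and Seurat 4.1.3 were used. No source used here names the aligner. The 10 genes and all gene lists were chosen with earlier results of these data known. Nuclei with at least 300 genes and under 5% mitochondrial UMIs were kept, and Scrublet called 2 doublets (0.00544%), too few for that step to have worked. Of nucleus barcodes without their sublibrary suffix, 3808 occurred in more than 1 sublibrary. Clusters came from scanpy 1.11.5 with leidenalg 0.10.2 (3000 variable genes, 30 components, 20 neighbours) and were named from fixed marker lists. CPM are UMIs of a gene per 1000000 UMIs, summed per pool within a class or subcluster of at least 10 nuclei. Differences were fitted with edgeR 4.0.16 (TMM, quasi-likelihood, side and labelled sex in the model, only where each pool had 20 or more nuclei of the class) in R 4.3.3, with DESeq2 1.42.0 as an alternative. On simulated counts with known side differences, edgeR recovered 82% of 1.5-fold changes in neurons (14163 genes), 66% in satellite glia (10540 genes), 46% in myelinating Schwann cells (6015 genes) and 32% in endothelial cells (4941 genes). False calls numbered 11, 10, 6 and 7. Each simulation changed 50 genes at each of 1.5-, 2-, 3- and 4-fold together, drawn from all tested genes, with no sex difference. These shares therefore do not give the power for a single or sparse retinoic acid gene. Other genes named are those of the pathway list with up to 3 highest CPM per role, and the 5 most correlated with Cyp26b1 or with a gene whose top subcluster was at least 3 times its median and 10 CPM. A few genes that this rule names are not reported here. Of the 6 same-numbered left and right pairs, male-labelled pair 2 deviated together and the other 5 did not, and no source used here says that a number marks the same rats, so pool numbers were not used as pairs. Sequences and gene spans are from RefSeq tables of GRCr8, in which all 10 genes matched by symbol.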

Additional observations from a re-analysis of the deposited data

Results flagged for a closer look

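In 68 groups of 6 pools, 5 had a highest or lowest pool set apart from the others by a gap above Dixon's 95% critical value, which chance gives in about 1 of 20 groups. Aldh1a2 in neurons of right pools was highest in female-labelled right pool 2, at 2.51 CPM against 0.488 to 0.971 in the others. Rxrg in satellite glia of right pools was lowest in male-labelled right pool 3, at 96.3 CPM against 124 to 134. Rxrg in myelinating Schwann cells of right pools was highest in female-labelled right pool 1, at 197 CPM against 117 to 142. Rarb in endothelial cells of right pools was highest in male-labelled right pool 2, at 129 CPM against 49.5 to 76.7. Cyp26b1 in neurons outside its top subcluster was highest among left pools in female-labelled left pool 1, one of the pools that went against its sex label, at 26.6 CPM against 17.01 to 20.4.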

How the results depend on the processing

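Over 154 alternative fits of the 8 contrasts (DESeq2, RLE factors, no filter on low counts, other clusterings, doublet removal, a replicate block, each pool or both pools against their sex label left out), 0 retinoic acid genes were called, and leaving out 1 pool gave 0 to 0 in each contrast. The log2 difference of Cyp26b1 by side in neurons was -0.86 to -0.70 with 1 pool left out, -0.81 in nodose-like neurons and -0.79 with the replicate block. Same-numbered pools correlated in their deviations at 0.50 in male-labelled pair 2 and between -0.16 and 0.08 in the other 5 pairs, and the labels do not say that a number marks the same rats. The block moved the genes called by side from 20 to 4 in neurons and from 4 to 1 in myelinating Schwann cells. Leaving out 1 pool gave right-to-left ratios of Cyp26b1 of 0.646 to 0.677 with UMI shares held, 0.601 to 0.697 in the top subcluster and 0.601 to 0.661 in other neurons. For the top subcluster's share of nuclei among neurons the ratio was 0.608 to 0.754. Adjusted p over alternatives came from edgeR, except in the DESeq2 fit, which the ranges include. By labelled sex in neurons it ran from 0.121 to 0.4659 for Dhrs3, 0.102 to 0.346 for Rarb, 0.162 to 0.494 for Rxrg and 0.119 to 0.495 for Rxra. For Cyp26b1 by side it ran from 0.808 to 1.00 in satellite glia and from 0.427 to 0.964 in endothelial cells. In endothelial cells Cyp26b1 passed the low-count filter in 6 of the 12 fits without 1 pool.

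Among all genes, those called by side in neurons numbered 20, against 78 with DESeq2, 64 without the filter and 3 without the 2 pools against their sex label. By labelled sex in neurons they numbered 0, against 311, 429 and 27, and in satellite glia 0, against 3, 71 and 17. Without the filter 4 were called for the interaction, and 13, 14 and 11 by side in satellite glia, myelinating Schwann cells and endothelial cells. By labelled sex, 16 and 3 were called in the latter classes without the filter, and 8 and 3 without the 2 pools. In myelinating Schwann cells 4 were called by side, against 1 with DESeq2 and 0 without the 2 pools. The cause was not tested. The median share of neurons with a UMI over the 10 genes was 0.867% at 1500 UMIs, 0.613% at 1000, 1.38% at 2500 and 2.10% without thinning, as deeper sampling finds more UMIs. The endothelial fit at clustering resolution 2 was not run, since 1 pool had 17 nuclei. Counts limit the ALDH1A genes outside neurons and Cyp26b1 in endothelial cells, where its 68 UMIs leave a wide interval.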
